A study of Mus musculus with 35 samples.

Results

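The genes described here encode 7 surface proteins of B cells: Cd79a, Cd79b, Cd22, Cd72, Ms4a1, Cd24a and Cd40. They were followed through 33 mouse chromatin immunoprecipitation (ChIP-seq) peak lists, by every peak whose deposited gene name was 1 of the 7. This gave 404 peaks of 1212511, for 7 of the 23852 genes named in any list. CD79A and CD79B are the signalling chains that carry the immunoglobulin receptor, and its precursor, to the cell surface and pass the signal on through tyrosine motifs. CD22 and CD72 are inhibitory coreceptors that recruit a phosphatase and dampen that signal, while CD20 (encoded by Ms4a1), CD24 and CD40 are further surface proteins of the lineage. CD40 is a receptor of the TNF receptor family that receives help from T cells, and EBF1, PAX5, E2A and ETS1 are known activators of CD79A.

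The study compared pre-B cell progenitors that adhere to stroma in culture, at passages 3 to 8, from WT mice and from mice labelled IKDN CD2 Cre. IKDN stands for a dominant-negative form of Ikaros, a zinc finger factor of lymphocytes, here in mice that carry the CD2 Cre driver, which is active in lymphoid cells. The series title speaks of super-enhancer reprogramming, a B cell to epithelial transition and leukemia. Of 35 libraries, 2 were inputs without a peak list, 16 lists were WT and 17 IKDN. In both genotypes there were 7 broad targets, namely 6 histone marks and RNA polymerase II (RNAPII, given as RpIIS5 in the labels), and 8 factors, PAX5, EBF1, E2A, ETS1, IRF4, TEAD1, MED1 and Aiolos. There was an Ikaros list for WT, and LHX2 and LMO2 lists for IKDN. Each target and genotype has 1 library, so no difference below has a replicate check, a standard error or a test. A peak in fewer cells and weaker binding in each cell cannot be told apart in such bulk lists.

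Before the results, a few lists stand apart. The WT E2A list ended at 157 Mb of chromosome 2 and held nothing on chromosomes 3 to 9 or X, which removed the E2A comparison for Cd79a, Cd22, Cd72 and Cd40. WT ETS1 held nothing on chromosome 2, which removed it for Cd40, and IKDN PAX5 ended at 32.6 Mb of chromosome 9, where no member lies. For 3 targets, E2A, ETS1 and H3K4me3, the labels give different antibodies in the 2 genotypes, and the IKDN H3K4me3 library carries the entry of the H3K4me1 libraries. Of the 5000 best-scored peaks of that IKDN list, 93.5% overlapped the WT H3K4me3 list. The same share was 65.1% for ETS1 and 53.4% for E2A. IRF4, PAX5 and the IKDN E2A library share 1 antibody entry, as do WT E2A, IKDN ETS1 and LHX2, and whether these entries bear on the values below was not tested. If peak scores are tags scaled to 10 M, which is an inference from their steps, depth ran from 10.7 M tags (IKDN H3K4me3) to 37.5 M (IKDN H3K27me3). Most factor lists were longer in IKDN: MED1 12070 and 24219 peaks, TEAD1 33520 and 47735, IRF4 17950 and 29561 in WT and IKDN.

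The labelled cell type was checked by peaks at B lineage genes. H3K27ac, a mark of active promoters and enhancers, lay at 7 of 8 such markers in WT and 6 of 8 in IKDN, with summed lengths of 144.0 and 93.8 kb. No H3K27ac peak carried the name of Vpreb1 in either genotype, or that of Rag1 in IKDN. All marker values here are by name, without a window, so a missing named peak does not show that the mark is absent. For RNAPII the name differed between genotypes: Igll1 held 18.5 kb in the WT list and Vpreb1 none. The IKDN list had 25.8 kb under Vpreb1 and none under Igll1. Of 8 stromal fibroblast markers, 5 had an H3K27ac peak in WT and 4 in IKDN, together 18.4 and 21.5 kb, and Col1a2, Dcn and Lum had no H3K27ac peak. Cxcl12 alone was 5.53 and 15.9 kb, and without it the other 7 came to 12.8 and 5.63 kb. On these stromal genes H3K4me3 came to 17.6 kb in WT against 1.88 kb in IKDN. For dendritic cells, which also carry CD40 and CD72, 3 and 5 of 5 markers had H3K27ac, over 16.3 and 13.6 kb. Myeloid markers had it at 5 and 6 of 7, over 18.3 and 26.4 kb. Mpo was at 0 in both, while Cebpa (0 and 7.34 kb) and Csf1r (0.5 and 6.57 kb) were longer in IKDN. The remaining markers of that list were shorter in IKDN. These were Itgam (11.2 and 6.49 kb), Cd14 (3.12 and 2.83 kb), Lyz2 (1.29 and 1.05 kb) and Fcgr1 (2.2 and 2.13 kb). T cell markers had it at 3 and 3 of 7, over 11.1 and 5.88 kb, with Cd3e, Cd3g, Cd8a and Trac at 0. The part of other cells in the values below was not tested.

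On the GRCm38 build, Cd79a lies at chr7:24897497-24901858, Cd22 at chr7:30865404-30880342 and Cd72 at chr4:43447724-43455102. Cd79b lies at chr11:106311341-106314562, Ms4a1 at chr19:11249679-11266149, Cd24a at chr10:43579169-43584265 and Cd40 at chr2:165055614-165071654. Cd79a, Cd24a and Cd40 are on the plus strand and the other genes on the minus strand. RefSeq promoter sequences of that build, 250 bases before to 50 after the start site, were matched for 3 of the 7, Cd79a, Cd22 and Cd72. They are shown because the peaks of several factors met on these stretches in both genotypes. Capitals mark the letters of the motifs found, 5′ to 3′ on the gene's strand, at chr7:24897247-24897546, chr7:30878979-30879278 and chr4:43454577-43454876.
Cd79a: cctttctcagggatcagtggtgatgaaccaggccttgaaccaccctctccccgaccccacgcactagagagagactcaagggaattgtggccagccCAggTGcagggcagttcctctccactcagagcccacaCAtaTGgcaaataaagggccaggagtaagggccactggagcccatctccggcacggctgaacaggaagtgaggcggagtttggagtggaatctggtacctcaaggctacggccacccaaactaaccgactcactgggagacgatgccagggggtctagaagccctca
Cd22: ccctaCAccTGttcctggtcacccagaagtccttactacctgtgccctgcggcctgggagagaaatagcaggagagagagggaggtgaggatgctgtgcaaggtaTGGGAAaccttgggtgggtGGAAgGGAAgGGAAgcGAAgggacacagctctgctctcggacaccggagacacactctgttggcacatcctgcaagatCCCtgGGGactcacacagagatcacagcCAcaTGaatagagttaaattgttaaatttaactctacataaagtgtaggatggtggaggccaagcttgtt
Cd72: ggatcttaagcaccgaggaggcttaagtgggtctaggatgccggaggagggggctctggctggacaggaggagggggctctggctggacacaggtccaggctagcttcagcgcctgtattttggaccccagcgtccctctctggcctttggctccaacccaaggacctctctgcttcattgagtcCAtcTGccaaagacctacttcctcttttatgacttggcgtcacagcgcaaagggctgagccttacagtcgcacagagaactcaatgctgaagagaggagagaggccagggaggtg

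The letters searched, on both strands, were CCCNNGGG (EBF), CANNTG (E-box, bound by E2A), CCGGAA (ETS), TGGGAA (Ikaros), GGAATG (TEAD), GGAANNGAA (composite of ETS and IRF) and TGTGGT (Runx). Of 32851 promoters of that length, 13.7% held the EBF letters, 72.3% an E-box, 14.9% the ETS, 25.6% the Ikaros, 14.7% the TEAD, 8.24% the composite and 16.8% the Runx letters. In Cd79a there were 2 E-boxes, at -154 and -117 bases from the start. In Cd22 there was an EBF match at -48, E-boxes at -245 and -20, an Ikaros match at -145 and 3 overlapping composite matches at -126, -121 and -116. Cd72 held 1 E-box at -65. These are matches of letters and do not show a bound site.

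For the 7 broad targets, the length covered by the peaks named for a gene was compared. A gene counted as higher or lower in IKDN if that length differed by at least 1000 bp and 1.5 times, a threshold and not a test. Of 49 gene and target pairs, 6 were higher, 9 lower and 34 neither, and 10 of the pairs had no peak in either genotype. Since a long peak takes the name of the gene nearest to its centre, all peaks were also measured over each gene with 10 kb on both sides, whatever their name. In that window 4 pairs were higher and 7 lower. The window was measured at the 7 genes alone, so its counts have no share over all genes beside them. Of the 24 calls on marks and factors together, 14 were also made in the window.

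**Figure D1:**
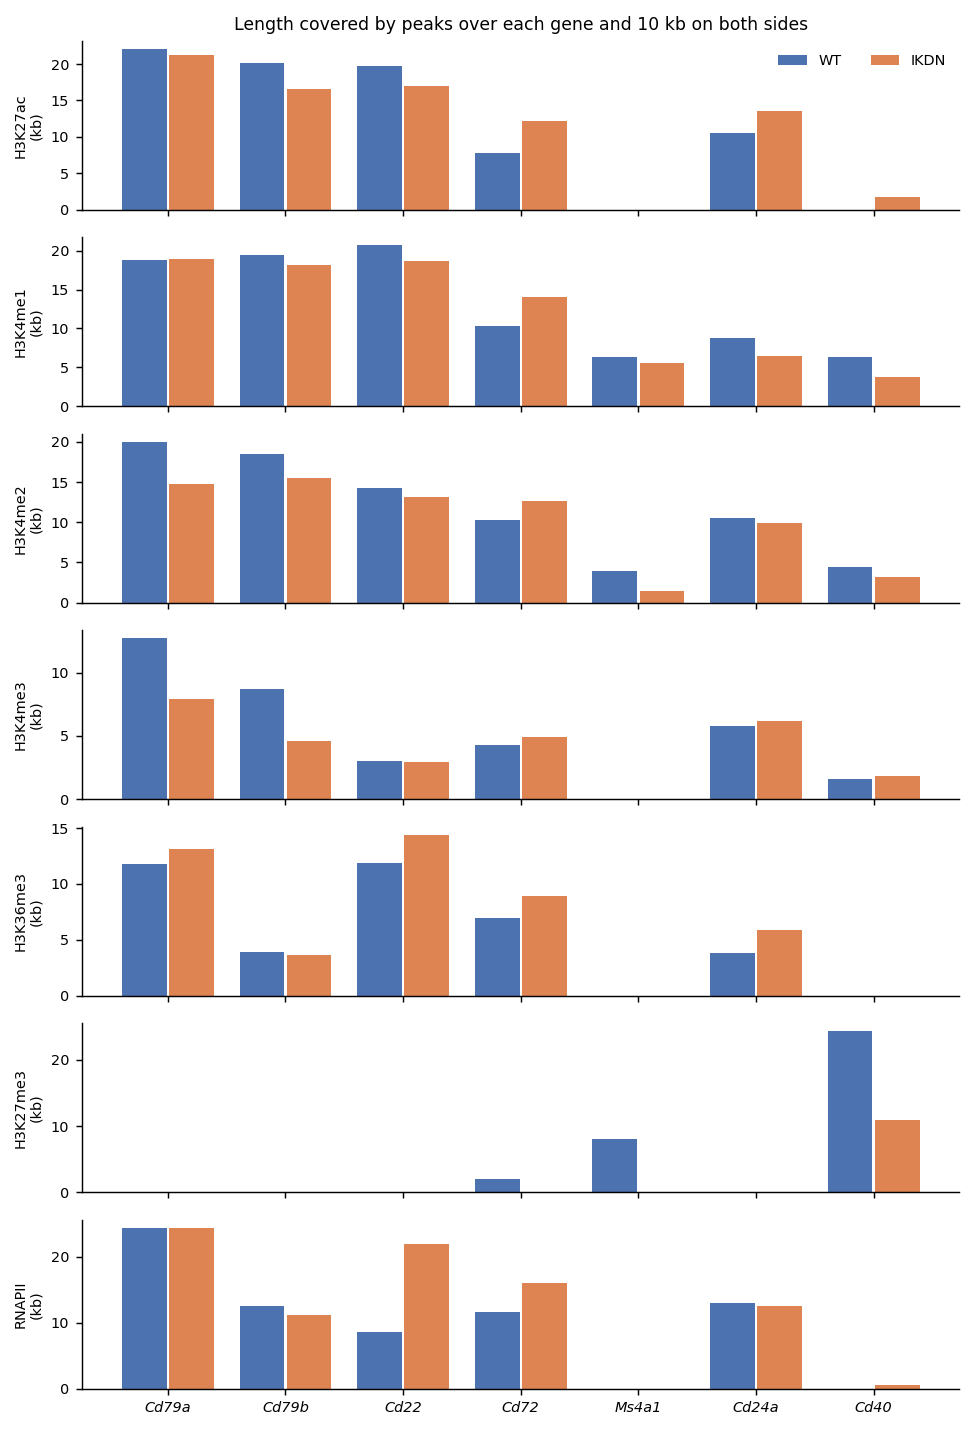
Length covered by the peaks of each broad target (kb, 1 panel a target) over each gene and 10 kb on both sides, in WT (blue) and IKDN (orange), 1 library a bar. Cd22 RNAPII is 8.58 and 22.0 kb, Cd40 H3K27me3 24.3 and 10.9 kb, and Ms4a1 has H3K27me3 in WT and none of it in IKDN.

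Both signal chain genes had broad active chromatin in WT and in IKDN. At Cd79a, H3K27ac filled 22.1 kb of the window in WT against 21.2 kb in IKDN, H3K4me1 (enhancers) 18.8 and 18.9 kb, and RNAPII 24.4 and 24.4 kb. For RNAPII, 1 peak of 48.6 kb in WT and 1 of 29.3 kb in IKDN ran past both ends of the window. The equal RNAPII values are thus the length of the window, which cannot show a difference there. The calls by name were different: H3K27ac was 25.8 kb and 0, H3K4me1 11.8 and 2.34 kb, and RNAPII 0 and 29.3 kb. These followed the centres of long peaks. The WT H3K27ac domain of 25.8 kb, in the top 0.0599% of its list, was centred 1.33 kb before the Cd79a start. In IKDN the stretch held a peak of 10.8 kb named for Rps19 and one of 13.4 kb, across the Cd79a promoter, named for Arhgef1. The single WT RNAPII peak of 48.6 kb over the gene was likewise named for Arhgef1. H3K4me3, a mark of active promoters, was the exception: named peaks gave 0 and 3.9 kb, but in the window it was 12.7 kb in WT against 7.94 kb in IKDN, so the direction by name turned around. The WT promoter peak was 9.48 kb long, against 3.9 kb in IKDN with a separate peak of 3.34 kb downstream. H3K36me3, which marks transcribed gene bodies, covered 11.8 and 13.1 kb of the window, none of it in peaks named for Cd79a. The peak that overlapped the gene was 3.54 kb long in WT and 4.02 kb in IKDN. The remaining H3K36me3 lay outside the gene, in peaks named for Rps19 and Arhgef1. There was no H3K27me3, the Polycomb mark, in the window in either genotype.

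**Figure D2:**
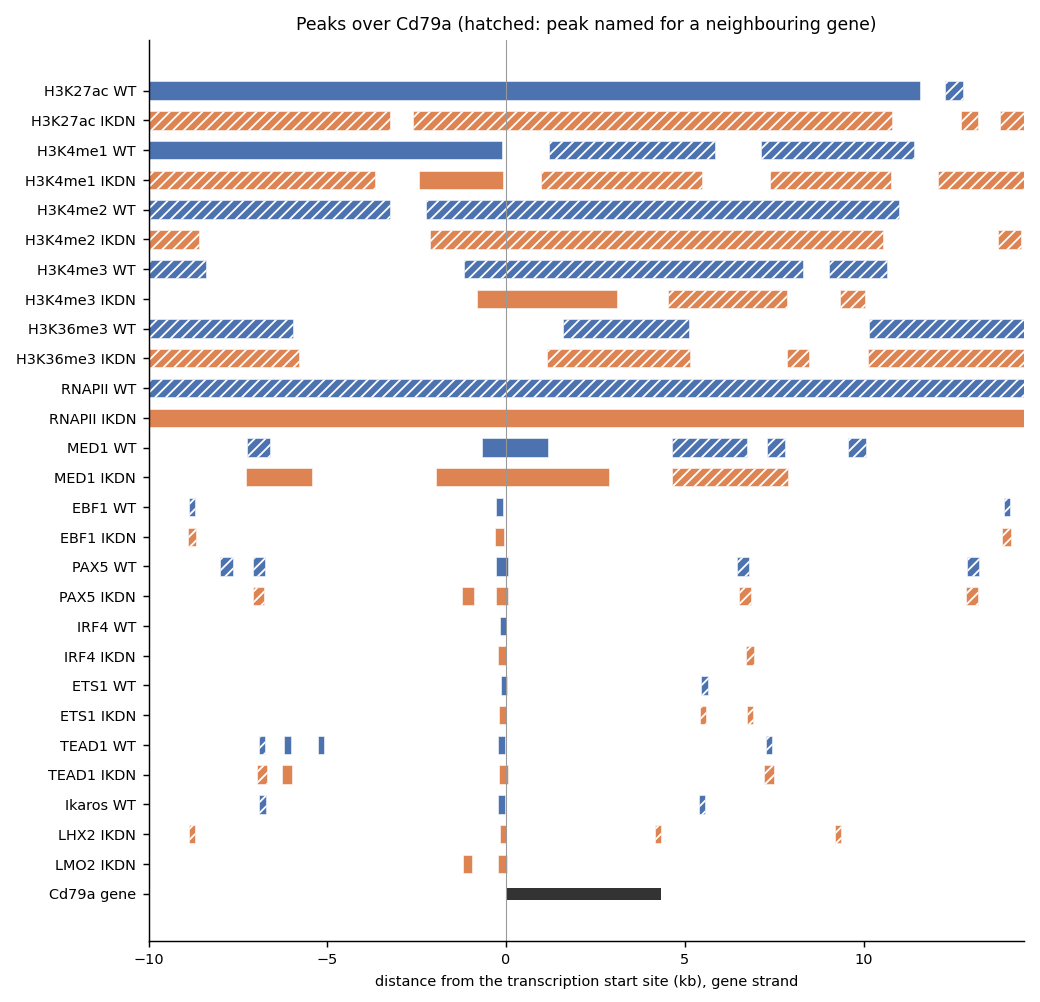
Peaks over Cd79a (black bar) by distance from its transcription start site in kb, 1 row a list, WT in blue and IKDN in orange; hatched peaks carry the name of another gene. Factor peaks line up just before the start site in both genotypes, while the long H3K27ac and RNAPII peaks differ in the gene they are named for.

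The Cd79a promoter held 6 of 7 factors mapped in WT within 500 bp of the start (EBF1, PAX5, IRF4, ETS1, TEAD1, Ikaros) and 8 of 9 in IKDN (E2A, EBF1, PAX5, IRF4, ETS1, TEAD1, LHX2, LMO2). The best-scored EBF1 peak ranked in the top 1.49% of 25627 in WT and the top 1.94% of 33414 in IKDN. ETS1 stood at 2.77% and 1.89%, PAX5 at 4.06% and 4.35%, and IRF4 at 19.1% and 22.7%. LMO2, a bridging protein of E2A complexes, was in the top 0.674% of its list there, and E2A in IKDN in the top 2.03%. The promoter was thus among the better-scored sites of several lists in both genotypes, though ranks in lists of different length show no change. MED1, a subunit of the Mediator complex, had 1 peak of 1.86 kb in WT and 2 of together 6.69 kb in IKDN.

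At Cd79b, covered length was lower in IKDN for 2 of 7 broad targets. H3K4me3 by name was 7.1 kb in WT against 4.6 kb in IKDN, with 8.69 and 4.6 kb in the window: a WT peak of 5.74 kb stood against 3 peaks of 1.96, 1.32 and 1.31 kb. H3K4me1 was 24.8 and 11.6 kb by name but 19.5 and 18.2 kb in the window, since an IKDN peak of 10.7 kb was named for the neighbour Gh. H3K27ac (23.5 and 18.8 kb), RNAPII (13.4 and 12.7 kb) and H3K36me3 (3.93 and 3.61 kb) differed by less than the threshold. Over the factors mapped in both genotypes, 7 of 8 factor sites held peaks in both, with 6 factors in WT and 5 in IKDN at -4.43 kb, and 6 and 5 at 6.19 kb. Aiolos, an Ikaros relative, had 2 peaks in WT, at -4.43 and 5.96 kb, and none in IKDN. They ranked in the top 90.7% and 32.9% of 3514. A further 2 WT Aiolos peaks in the window, named for Gh, were in the top 32.9% and 11.8%, so the window held 4 in WT and 0 in IKDN. At the promoter, EBF1 was in the top 3.64% in WT and 4.44% in IKDN, PAX5 and IRF4 were listed in WT, and E2A and LHX2 in IKDN.

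The inhibitory coreceptor genes Cd22 and Cd72 were covered by longer RNAPII peaks in IKDN. At Cd22, RNAPII named for the gene was 0.95 kb in WT, a single peak upstream, and 20.9 kb in IKDN, where a peak of 18.5 kb lay along the gene. In the window the lengths were 8.58 and 22.0 kb, a ratio of 2.56. H3K36me3 along Cd22 was 11.9 and 14.4 kb, H3K27ac 19.8 and 15.0 kb and H3K4me1 22.6 and 19.8 kb, differences under the threshold. H3K4me3 at the promoter was near equal in length, 2.55 and 2.92 kb. No H3K27me3 peak was named for Cd22.

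Cd22 has annotated starts 1.31 kb apart, and positions here count from the downstream one, which the promoter sequence uses. Within 500 bp of it stood EBF1, PAX5, IRF4, ETS1 and Ikaros in WT and E2A, EBF1, PAX5, IRF4, ETS1 and LHX2 in IKDN. The EBF1, PAX5 and ETS1 peaks of both genotypes, WT IRF4 and IKDN E2A covered the EBF and composite letters shown above. The Ikaros and LHX2 peaks began at -37 and -36 bases, past both. The IKDN IRF4 peak began at -54, past the composite letters. The EBF1 peak was in the top 1.52% in WT and 2.61% in IKDN, PAX5 in 1.79% and 1.05%, ETS1 in 2.42% and 1.32%. A second site 8.66 kb upstream held 5 of the factors mapped in both genotypes in WT and 6 in IKDN, with Ikaros in the top 1.43% of its list and Aiolos listed in both genotypes. MED1 had no promoter peak in WT and one of 1.91 kb in IKDN, and its total was 2.33 and 6.41 kb. TEAD1, the DNA-binding partner of YAP, had 1 peak in WT and 5 in IKDN.

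At Cd72, RNAPII was 4.71 kb in WT, in 4 peaks, against 16.0 kb in IKDN, in 2 peaks of which the longer was 13.8 kb. In the window the lengths were 11.7 and 16.0 kb, a ratio of 1.37 and under the threshold, since 6.99 kb of WT signal was named for the neighbour Tesk1. H3K36me3 followed the same course, 2.65 and 8.95 kb by name and 6.94 and 8.95 kb in the window. H3K27ac was 5.95 and 8.93 kb by name, just under the threshold, and 7.79 and 12.2 kb in the window, over it. MED1 peaks were 0.5 kb long in WT against 5.11 kb in IKDN, the latter mostly 1 promoter peak in the top 2.48% of its list.

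**Figure D3:**
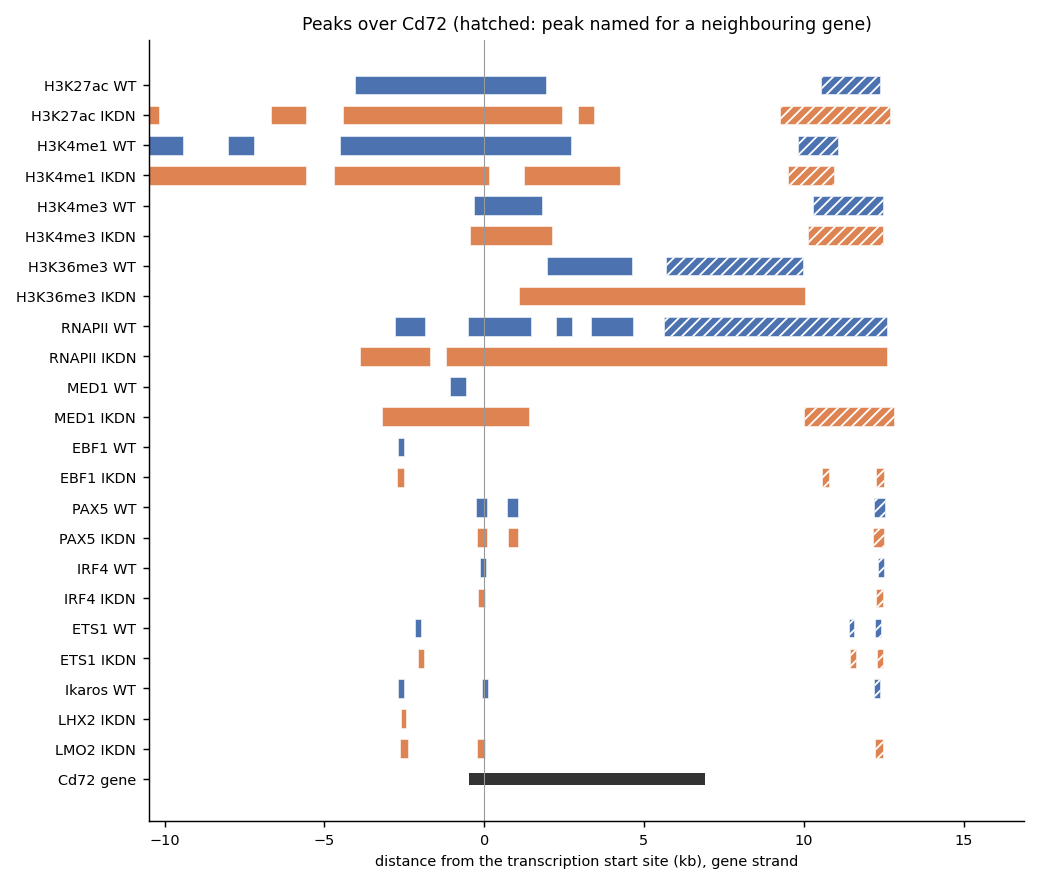
Peaks over Cd72 (black bar) by distance from its transcription start site in kb, 1 row a list, WT in blue and IKDN in orange; hatched peaks carry the name of another gene. Along the gene RNAPII and H3K36me3 are each several peaks in WT and 1 peak in IKDN, and the IKDN MED1 peak over the promoter is longer than the WT one.

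A WT H3K27me3 peak of 2.02 kb in the window, named for Tesk1, had no IKDN counterpart, which made H3K27me3 lower there. The factor sites of Cd72 were present in both genotypes at each of 4 places. PAX5 at -10.9 kb was in the top 0.177% of 82361 peaks in WT and 0.187% of 86703 in IKDN, the best-ranked PAX5 peak of the 7 genes in each list. EBF1 lay at -2.59 kb in WT (top 14.4%) and at -2.62 kb in IKDN (top 7.58%), where Ikaros, E2A, LHX2 and LMO2 also had peaks in the lists that cover it. IRF4 and PAX5 met at the promoter, IRF4 in the top 19.1% and 13.6%. In IKDN, TEAD1 and LMO2 were listed there too.

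Ms4a1, the CD20 gene, had little active chromatin in either genotype. There was no H3K4me3, H3K36me3, RNAPII or MED1 peak for it in WT or IKDN, and H3K27ac was absent in WT and a single 0.5 kb peak at 31.3 kb in IKDN. H3K27me3 was present in WT as 10 short peaks that covered 9.13 kb and absent in IKDN. In the window this was 8.0 kb against 0. H3K4me2 was 4.0 and 2.18 kb and H3K4me1 6.77 and 6.9 kb. The WT H3K4me1 peak of 1.53 kb at the promoter had no counterpart in IKDN.

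Factor peaks at Ms4a1 were more numerous in IKDN for 4 of the 8 factors: EBF1 had 1 and 4, PAX5 2 and 4, ETS1 0 and 3 and TEAD1 0 and 3. In the window EBF1 (1 and 3) and TEAD1 (0 and 2) were still called, while PAX5 (2 and 3) and ETS1 (0 and 1) were not. With the top-scored 50% of each list none of these 4 was called. The lists of all 4 were longer in IKDN. A site 21.8 kb from the start, past the end of the gene, held E2A, IRF4 and Ikaros in WT and E2A, PAX5, IRF4, ETS1, TEAD1, LHX2 and LMO2 in IKDN. LHX2, a LIM homeodomain factor, was in the top 1.84% of its list there and LMO2 in the top 5.81%, while IRF4 was in 18.2% and 8.49%. E2A was in 29.3% and 38.2%, and in IKDN ETS1 was in 18.7%, PAX5 in 68.4% and TEAD1 in 88.7%. Another site at 31.7 kb held EBF1, PAX5, IRF4, ETS1 and TEAD1 in IKDN and no factor in WT. The IKDN H3K27ac peak and H3K4me1 (1.29 kb, and 0.5 kb in WT) lay at that place. The IKDN factor peaks at 31.7 kb ranked between the top 40.3% and 80.4% of their lists.

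Cd24a encodes a small glycoprotein of early B cells, and most of its broad targets were near equal in WT and IKDN. Its promoter carried a long H3K4me3 peak, 5.81 kb in WT and 6.16 kb in IKDN, in the top 0.324% and 0.188%. RNAPII covered 13.0 and 12.5 kb, H3K27ac 8.52 and 8.85 kb and H3K4me2 8.43 and 8.5 kb. H3K36me3 was 3.86 and 5.41 kb by name, and 3.86 and 5.91 kb in the window, where it was called higher at a ratio of 1.53. H3K4me1 was lower by name, 5.63 and 3.58 kb, but 8.8 and 6.48 kb in the window, under the threshold. MED1 had 2 peaks in each genotype, of together 4.88 kb in WT against 10.6 kb in IKDN, a ratio of 2.17, where 1 peak of 9.97 kb was in the top 0.347%. No factor was called different in number, by name or in the window, and PAX5 just before the start was in the top 3.25% and 4.48%.

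Cd40 had the largest difference in H3K27me3 of the 7 genes. Its peaks were 16.3 kb long in WT against 3.07 kb in IKDN, with 24.3 and 10.9 kb in the window. A WT domain of 12.4 kb across the promoter, in the top 1.78% of its list, had no counterpart over the start site in IKDN, where the nearest peak was 1.65 kb long at -4.54 kb. Peaks downstream, named for another gene, were near equal, at 6.26 and 6.39 kb for the longest. H3K27ac was absent in WT and 1.7 kb in IKDN, at the promoter, and RNAPII absent in WT and 0.625 kb in IKDN. H3K4me3 was listed in both, 1.61 and 1.8 kb, H3K4me2 was 4.49 and 3.21 kb, and H3K4me1 was lower, 6.38 and 3.8 kb. No H3K36me3 or MED1 peak was named for Cd40. The IKDN H3K27ac and RNAPII peaks ranked in the top 45.3% and 45.4% of their lists.

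**Figure D4:**
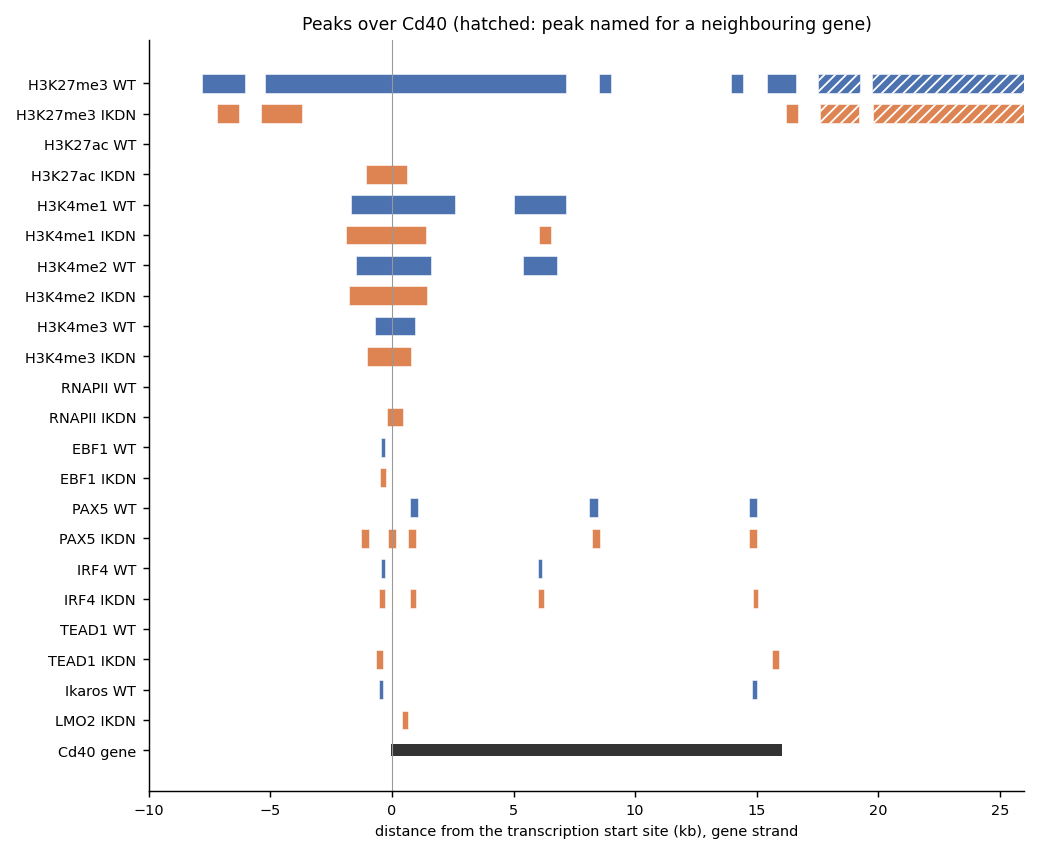
Peaks over Cd40 (black bar) by distance from its transcription start site in kb, 1 row a list, WT in blue and IKDN in orange; hatched peaks carry the name of another gene. The 12.4 kb WT H3K27me3 peak over the start site is missing from the IKDN row, where short H3K27ac and RNAPII peaks stand.

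EBF1 stood at the Cd40 promoter in both genotypes, at -0.364 kb in the top 7.76% in WT and -0.368 kb in the top 7.15% in IKDN. IRF4 lay beside it in both, in the top 31.0% and 32.5%, with 2 peaks in WT and 4 in IKDN. PAX5 had 3 and 5 peaks, and one on the start site, at 0.01 kb, was listed in IKDN alone. TEAD1 had none in WT and 2 in IKDN. Ikaros in WT was at -0.44 kb, in the top 12.9%.

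Read by mark, the calls by name were set against all 23852 genes. Every share in percent below is by name, and the window counts have none to be set against. For H3K4me1, 4 of the 7 were lower and 0 higher, where 14.4% of all genes were lower and 15.5% higher, but in the window Cd40 alone was lower. For RNAPII, 3 were higher and 0 lower, against 17.4% and 15.9%, and in the window Cd22 alone was higher. At Cd79a RNAPII filled the whole window in both genotypes, so no call could be made there. For H3K27me3, 2 were lower and 0 higher, against 20.0% and 17.8%, and in the window 3 were lower, Cd72 being the third. The higher and lower calls were 1 and 1 for H3K27ac (14.1% and 10.8% of all genes), 1 and 1 for H3K4me3 (3.11% and 6.57%), 0 and 1 for H3K4me2 (10.7% and 9.18%), and 1 and 0 for H3K36me3 (16.5% and 5.47%). In the window H3K27ac was called higher at 2 (Cd72 and Cd40) and lower at 0, and H3K4me3 higher at 0 and lower at 2 (Cd79a and Cd79b). H3K4me2 was there lower at Ms4a1, as by name, and H3K36me3 higher at Cd24a in place of Cd72. With 7 genes, 1 call is 1 in 7, so counts by name of 0 or 1 are near the background in most of these. In the window the median difference over the 7, IKDN minus WT, was -1277 bp for H3K4me1, -1280 bp for H3K4me2 and 1307 bp for H3K36me3, and 0 for the other 4 broad targets. By name it was -2584 bp for H3K4me1, -1280 bp for H3K4me2, 349 bp for H3K4me3, 328 bp for H3K27ac, 625 bp for RNAPII and 0 for H3K36me3 and H3K27me3. These medians take in members without a peak of the target, whose difference is 0. Over all genes with such a peak in either genotype, the medians by name were -28, -91, -205, 119, 56, 1157 and -448 bp in that order. Genes without a peak are left out there, so the 2 kinds of median are not like for like.

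For factors, the number of peaks was compared, with a difference of at least 2 peaks and 1.5 times. Of 51 pairs, 8 were higher in IKDN, 1 lower and 42 neither, and 7 pairs had no peak in either genotype. TEAD1 was higher at 3 of 7 genes and lower at 0, against 18.1% and 5.87% of all genes, and PAX5 higher at 2 and lower at 0, against 13.2% and 3.48%. EBF1 was higher at 1 and lower at 0 (background 9.41% and 2.27%), IRF4 likewise at 1 and 0 (12.8% and 1.68%), and ETS1 at 1 and 0 of 6 (12.7% and 2.09%). MED1 was called at 0 and 0 (12.2% and 1.26%), E2A at 0 and 0 of 3 (3.15% and 15.0%) and Aiolos higher at 0 and lower at 1 (0.771% and 1.39%). By covered length in place of number, MED1 was called higher at Cd79a, Cd22, Cd72 and Cd24a. Calls of MED1 by length were not made over all genes, and MED1 peaks of the whole list were longer in IKDN (median 911 bp, 643 bp in WT). By name, 7 of the 8 higher calls were at Ms4a1 (4) and Cd40 (3), the genes with little H3K27ac, and the other was TEAD1 at Cd22. Of the 7, PAX5 at Cd40 alone was also called with the top-scored 50% of each list. At the 3 genes Cd79a, Cd72 and Cd24a no factor was called by the number of named peaks. In the window 9 pairs were higher and 2 lower: 5 of the 9 were at Ms4a1 and Cd40, and the other 4 were MED1 at Cd79b and Cd22, EBF1 at Cd72 and TEAD1 at Cd22. The lower ones there were MED1 at Cd79a (5 and 3 peaks, which covered 5.6 and 9.93 kb) and Aiolos at Cd79b. For factors too, the window counts have no share over all genes beside them.

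**Figure D5:**
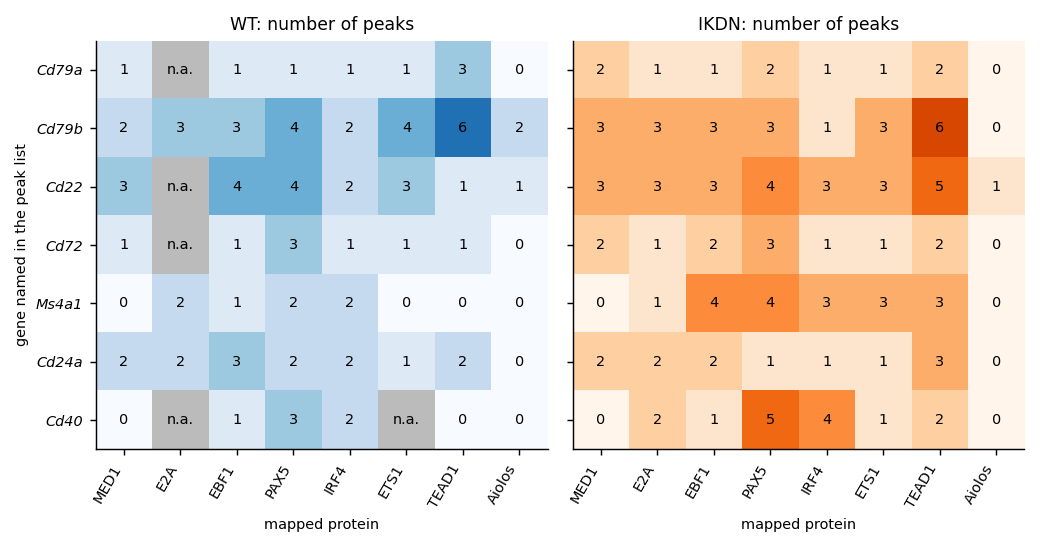
Number of peaks of each factor (columns) named for each gene (rows) in WT, left, and IKDN, right; darker cells hold more peaks, and n.a. marks a list that does not cover the gene's chromosome. Ms4a1 has 0 to 2 peaks a factor in WT and up to 4 in IKDN, while Cd79a and Cd72 hold 0 to 3 in both genotypes.

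Most WT factor peaks of these genes had an IKDN peak of the same factor over them, by at least 1 bp: 70 of 87 WT peaks, and 70 of 106 IKDN peaks seen the other way. By factor the WT peaks overlapped were 12 of 14 for EBF1 (74.7% of all WT peaks), 16 of 19 for PAX5 (80.3%), 9 of 12 for IRF4 (64.3%) and 9 of 10 for ETS1 (68.5%). They were 10 of 13 for TEAD1 (55.6%), 8 of 9 for MED1 (72.7%), 5 of 7 for E2A (33.2%) and 1 of 3 for Aiolos (13.2%). The IKDN peaks overlapped were 12 of 16 for EBF1 (57.2% of all IKDN peaks), 16 of 22 for PAX5 (69.0%) and 9 of 14 for IRF4 (39.0%). They were 9 of 12 for ETS1 (47.2%), 10 of 23 for TEAD1 (39.1%), 8 of 12 for MED1 (34.8%), 5 of 6 for E2A (59.1%) and 1 of 1 for Aiolos (16.6%). These shares are close to or above those of the whole lists, over few peaks. Joining the transcription factor peaks of all lists within 500 bp gave 49 sites at the 7 genes. Over the factors with a list of both genotypes for the gene, 45 of the sites were left: 30 held a peak in both genotypes, 5 in WT alone and 10 in IKDN alone. Such sites were not counted over all genes. These numbers, and the site counts by gene above, therefore have no background share, and most IKDN factor lists were longer.

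Ikaros, mapped in WT, had 22 peaks, at all 7 genes. Of these, 13 overlapped a WT PAX5 peak, as did 50.4% of all Ikaros peaks, 8 a WT EBF1 peak (18.3% of all) and 10 an IKDN LHX2 peak (23.3%). LHX2 had 14 peaks in IKDN, at 6 of the genes and none at Cd40, and 10 of them lay on a WT Ikaros peak, where 37.2% of all LHX2 peaks did. LMO2 had 12, at all 7, and 7 lay on an Ikaros peak, where 55.7% of all LMO2 peaks did. Since LHX2 and LMO2 were not mapped in WT, no change can be read from them.

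The other genes of the pathway were read from lists of 28 surface coreceptors and 24 signalling genes below CD79 and CD40. All lengths of these genes are by name and no window was measured for them. A call can therefore follow the name of a long peak, as it did at Cd79a. By H3K27ac length, 3 coreceptors were higher in IKDN and 9 lower. The 3 named as lower were Slamf6 (19.9 and 5.52 kb in WT and IKDN), an adhesion receptor, Tnfrsf13b (18.1 and 8.99 kb), the TACI receptor, and Siglecg (10.8 and 1.79 kb), an inhibitory lectin related to CD22. Higher were Fcrl1 (8.53 and 13.7 kb), an Fc receptor-like protein, Cd81 (0.661 and 4.64 kb), a tetraspanin, and Cd5 (1.64 and 4.46 kb), an inhibitory coreceptor. Of the signalling genes 3 were higher and 8 lower. Lower were the kinase gene Blk (21.7 kb and 0), Pik3cd (34.0 and 14.0 kb), a kinase of membrane lipids, and Bank1 (24.3 and 6.0 kb), a B cell scaffold. Higher were Rasgrp3 (7.26 and 24.3 kb), an activator of Ras, and the adaptors Grb2 (10.8 and 16.8 kb) and Cd2ap (4.71 and 8.33 kb). By RNAPII length, 3 of the 28 coreceptors were higher and 8 lower, and of the 24 signalling genes 6 and 12. Over all genes the H3K27ac shares were 14.1% higher and 10.8% lower, and those of RNAPII 17.4% and 15.9%.

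The genes most like each of the 7 across targets were taken by Pearson's r of log2((IKDN + 500 bp)/(WT + 500 bp)) of covered length, over 13 to 15 targets, among genes with an H3K27ac peak. Cd22 was nearest to Cep350 (r = 0.987), Cad (0.971) and Dhx15 (0.959), and Cd72 to Tk2, Smim3 and Dennd3 (each 0.955). Cd40 was nearest to 1500009C09Rik (0.967), Rhod (0.917) and Gm1965 (0.912), and Ms4a1 to Cables1 (0.955), Mfsd7c (0.946) and 1110028F11Rik (0.941). For Cd79a they were 1500012K07Rik (0.898), Ppwd1 (0.897) and 1700067K01Rik (0.892). For Cd79b they were Zfp433 (0.927), Esyt1 (0.852) and Syngr2 (0.846), and for Cd24a Nup85 (0.91), Mea1 (0.882) and Lrr1 (0.87). The best of 7462 to 13972 candidates over so few points is a description, and the points share their 2 genotypes and their list lengths.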

How the data were processed

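The peak lists were deposited by the authors with, per the file headers, coordinates, a peak score, a gene name and how far the centre lies from the closest start site (TSS). The unit is a score whose scale is not given in the sources used here. HOMER, STAR, BWA and bcl2fastq 1.8.3 are named in the submitters' processing notes, with the mm10 and mm9 builds. The caller's settings, the use of the inputs and any pooling are not given in the sources used here. The start sites those distances imply fitted GRCm38 (mm10) at the 7 genes.

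The analysis took the 19 autosomes with X and Y, in Python 3.11.15 with pandas 2.3.3 and numpy 2.4.6. A chromosome was left out of a list that ended there over 10 Mb short of the longest list. Genes named are the 7, the 3 most alike genes and some of the pathway genes called higher or lower by H3K27ac length. Among those called, up to 3 with the largest gain and up to 3 with the largest loss were named per list. Pathway genes with a larger gain that did not reach the threshold were left out. The neighbours Rps19, Arhgef1, Gh and Tesk1, and the single marker genes, were named after their values were seen. Members and lists were chosen with earlier results of these data known. Scores ranked peaks within a list, and no score was compared between lists. The code of the calls was checked on the WT H3K27ac list set against itself, with known peaks added or removed. That check has no noise and no second library, so it does not show how reliable a call is. In addition, 8 alternatives were run.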

Additional observations from a re-analysis of the deposited data

How the results depend on the processing

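With 1 library per target and genotype, no call has a replicate check. No paired analysis was possible because each group has 1 library, and none could be left out. Of the 24 calls, 24 were also made with peaks within 50 kb of the TSS, 9 within 2.5 kb, 16 with the top-scored 50% of each list, 21 with equal peak numbers, 19 at 2 times, 4 with the other measure (peak number for marks, length for factors) and 14 in the gene window. Cd40 H3K27me3 and Cd22 TEAD1 were called in each of these. The mark pairs called lower went from 9 to 5 at 2 times and 3 by peak number. The lower calls by peak number take in RNAPII at Cd72, which was called higher by length. The factor pairs called higher went from 8 to 3 within 2.5 kb, 5 in the top-scored 50% and 5 by length. These were not all pairs of the main run. In the top-scored 50%, TEAD1 at Cd22 and PAX5 at Cd40 were kept, while MED1 and IRF4 at Cd22 and TEAD1 at Cd79b were new. By length, TEAD1 at Cd22 was kept, while MED1 at Cd79a, Cd22, Cd72 and Cd24a was new. The 1 factor pair called lower went to 0 within 2.5 kb, 0 in the top-scored 50%, 0 at equal numbers, 0 by length and 2 in the window. The cause was not tested.

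Directions turned for Cd79a H3K4me1 (IKDN minus WT 2344 bp within 2.5 kb, 45 bp in the window), Cd79a H3K4me3 (-4754 bp in the window), Cd79b H3K4me3 (1 peak more by number) and Cd72 RNAPII (-3393 bp within 2.5 kb, -2 by peak number). Leaving out E2A, ETS1 and H3K4me3, an alternative chosen after seeing the data, left 21 calls. Each call uses only the lists of its own target, so these 21 could not change. Whether the antibody entries bear on the calls was not tested by it.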
